A study of Homo sapiens with 16 samples.

Results

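The 10 genes described here encode the core kinases of the Hippo pathway, their adaptors and upstream regulators that feed into them: the kinases STK3 (MST2), STK4 (MST1), LATS1 and LATS2, the adaptors SAV1, MOB1A and MOB1B, and the upstream regulators NF2, WWC1 and FRMD6. They were taken by symbol from the pathway's known composition, with earlier results of these data known. All 10 were present among the 26229 listed genes, and all 10 passed the count filter that left 14673 genes for testing.

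RNA was sequenced from A431, a line from an epidermoid carcinoma, and HaCaT, a spontaneously immortalised keratinocyte line, both grown in DMEM with 10% FCS. Each line has 8 libraries: 1 given control siRNA (siCTRL), 3 given YAP1 siRNA (siYAP), 1 with empty expression vector and 3 with the vector for YAP1 S5A (YAP5SA), a mutant lacking serines through which LATS kinases restrain YAP. The siRNA cultures carried no vector and the vector cultures no siRNA. The labels place RNA-seq 48 h after the second of the paired siRNA transfections and give no separate time for the vectors. They describe everything but the controls as triplicates, without saying whether these are separate cultures. The study's methods name biological triplicates and make no exception for the controls, of which the labels give 1 library per arm and line. The p-values measure the spread between the triplicate libraries. A lone control per arm means that the variation of controls was not measured and is assumed to match that of the triplicates. Exact permutation of 3 libraries against 1 has a smallest p of 0.25, so single genes were judged by the edgeR fit over all genes.

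In the Hippo pathway STK3 and STK4, held together with SAV1, phosphorylate LATS1 and LATS2 and their coactivators MOB1A and MOB1B. Activated LATS kinases phosphorylate YAP and TAZ, which then stay in the cytoplasm or are degraded instead of binding TEAD factors at target genes. NF2 (Merlin), WWC1 (KIBRA) and FRMD6 (Willin) act at the membrane, where NF2 and WWC1 help to bring LATS kinases to their activators. The paper reports more phosphorylated YAP and less nuclear YAP in keratinocytes given Src or PI3K inhibitors, and reads this as elevated MST-LATS signalling. LATS2 is known in other cells as a YAP target gene that closes a feedback loop.

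The libraries held between 18115624 and 46791673 read pairs assigned to genes. Levels are CPM, read counts relative to the library total after TMM scaling, and are compared within a gene, never between genes, since they are not divided by transcript length. YAP1 fell from 94.3 to between 5.0 and 7.0 CPM with siYAP in A431 and from 254.3 to between 21.6 and 23.2 CPM in HaCaT, and it stood at 1495 to 3245 CPM with YAP5SA in A431 (124.3 CPM with empty vector) and at 7549 to 22255 CPM in HaCaT (423.0 CPM), a rise past the test in HaCaT and not in A431 (FDR = 0.00208 and 0.197). The 8 keratinocyte and epithelial markers (KRT5, KRT14, KRT17, TP63, CDH1, ITGA6, ITGB4 and EGFR) lay between 79.2 and 2598 CPM in every library. The 6 markers of other cell types (PTPRC, PECAM1, COL1A1, COL3A1, PDGFRB and DES) summed to at most 6.13 CPM. The controls of the arms differed from each other: over 12240 genes the median absolute log2 ratio of empty vector to siCTRL was 0.28 in A431 and 0.65 in HaCaT, where 60.3% of genes were over 0.5 apart. Transfection type and any other difference between the arms cannot be told apart in it. In bulk RNA, fewer cells expressing a gene and less of its RNA per cell cannot be told apart either.

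Of the members, MOB1A, MOB1B and WWC1 were lower with siYAP over both lines, and their transcripts share short words in the 3′ UTR. These words, TTCTTAA and CTTCTTA, were searched on the transcript strand because they had come up in these same data among genes lower with siYAP, so their presence here is a description and supports nothing. Sites are shown in capitals with 10 bases on either side, in GENCODE v29 on GRCh38, and each lies within a single exon of the 3′ UTR of the longest-UTR transcript. The first MOB1A site is at chr2:74154940-74154966 on the minus strand, 1612 bases after the stop codon, and the second at chr2:74152809-74152835, 3743 bases after it. The MOB1B sites, on the plus strand, are at chr4:70982643-70982669, chr4:70983189-70983215 and chr4:70986550-70986576. The WWC1 site, at chr5:168469327-168469354 on the plus strand, holds both words overlapping in 8 bases, 320 bases after the stop codon.
MOB1A first site: ttcctagaaaTTCTTAAatatatacag
MOB1A second site: gtgctacagaCTTCTTAttatagaaca
MOB1B first site: taaaaaatatTTCTTAAttatttttta
MOB1B middle site: aaattgatcaCTTCTTAgcatttccat
MOB1B last site: aatctaccaaTTCTTAAaaacacagat
WWC1 site: agttgctgctCTTCTTAAaatcgtttag

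**Figure D1:**
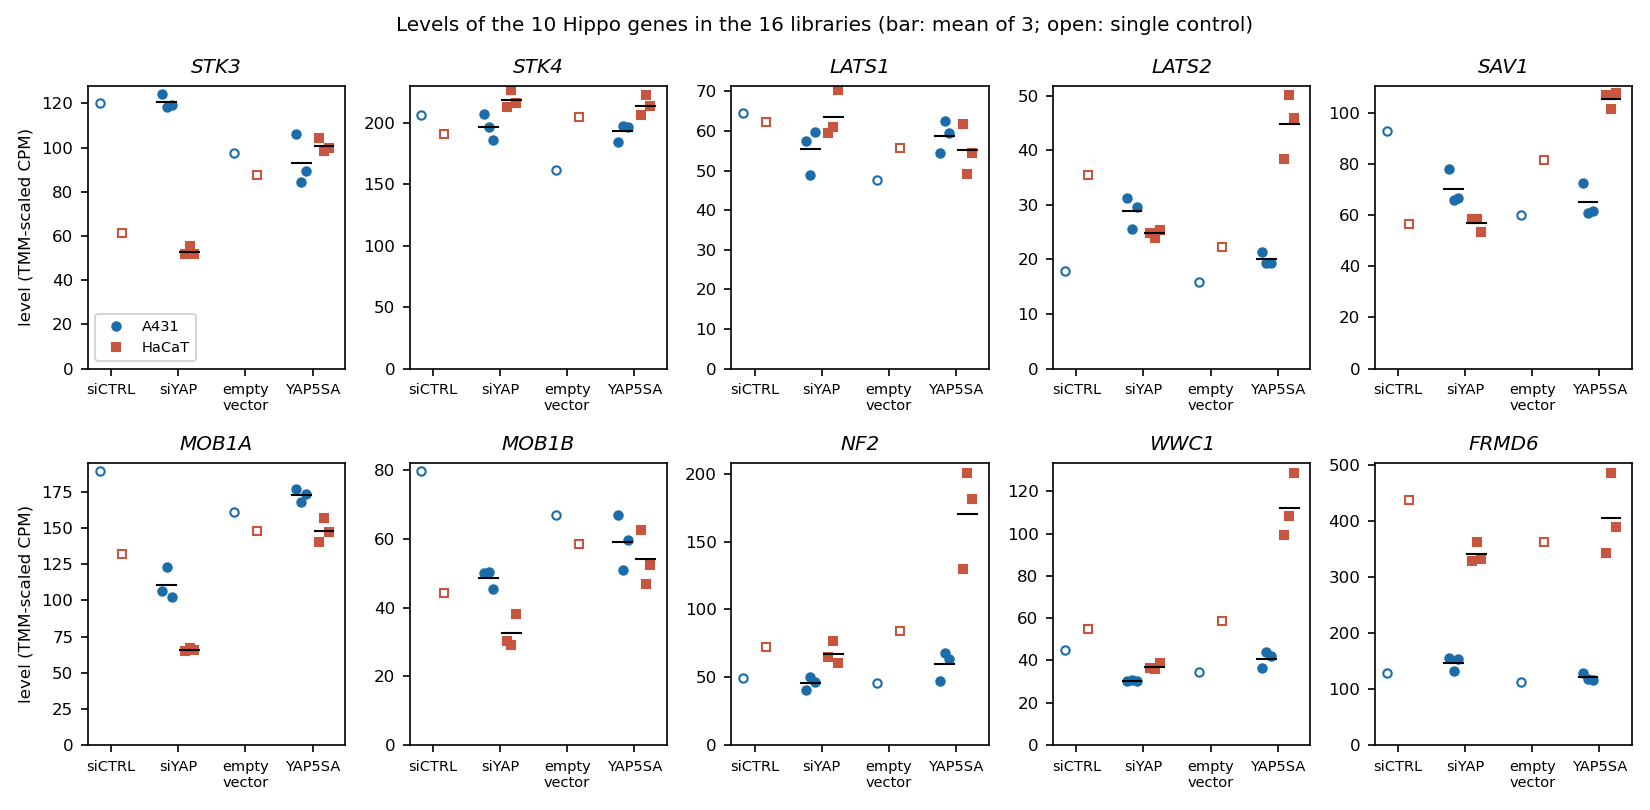
Level of each gene (vertical axes, TMM-scaled CPM from 0, scaled per gene) in the 16 libraries by condition. Filled circles are A431 and filled squares HaCaT, open symbols are the single controls, and bars are means of 3. MOB1A in siYAP libraries lay below every other library of its line, and NF2, WWC1 and LATS2 reached their highest levels in HaCaT YAP5SA libraries, up to 200.3, 128.7 and 50.1 CPM.

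The first question was how the pathway's own transcripts stood when YAP was depleted. With siYAP, MOB1A fell in both lines, MOB1B fell in A431 and WWC1 in HaCaT, and LATS2 rose in A431. Calling a gene required an FDR under 0.05 together with a log2 CPM above 1. By this rule 3 of 10 members were called in A431, where 5.6% of the 14673 tested genes were, and 2 of 10 in HaCaT, against 5.67%. Over both lines 3 of 10 were called, all lower, against 13%.

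MOB1A, the coactivator that LATS kinases need for full activity, stood at 189.2 CPM in A431 siCTRL and at 106.6, 122.8 and 102.5 CPM in the siYAP libraries. In HaCaT the control stood at 131.9 CPM and the siYAP libraries at 64.8, 66.9 and 65.8 CPM. No siYAP library overlapped any other library of its line. The log2 fold change was -0.77 (SE 0.12, FDR = 0.00375) in A431 and -1.0 (SE 0.12, FDR = 0.000569) in HaCaT, where the level was 0.499 of the control. MOB1A was called under every alternative run in both lines.

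MOB1B, the paralogue that binds LATS and NDR kinases in the same way, was measured at 79.7 CPM in A431 siCTRL and at 50.1, 50.4 and 45.5 CPM with siYAP. HaCaT gave 44.3 CPM in the control and 30.4, 29.2 and 38.2 CPM with siYAP. All siYAP libraries lay below the siCTRL library of their line. The fall in A431 was -0.71 on the log2 scale (SE 0.19, FDR = 0.0452), and it lost its call without any of the 3 replicates (FDR 0.0806 to 0.128) and with both controls together (FDR = 0.133). The HaCaT difference, -0.44 (SE 0.20, FDR = 0.222), was not called, whereas over both lines the change was -0.58 (SE 0.14, FDR = 0.0148). RSEM gave MOB1B, WWC1, STK4 and NF2 fractional counts in most libraries, so part of their reads was shared out among genes.

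WWC1, which binds NF2 and LATS kinases, had 44.8 CPM in A431 siCTRL against 30.2, 30.7 and 30.4 CPM with siYAP. The same gene had 55.0 CPM in HaCaT siCTRL against 36.4, 36.1 and 38.6 CPM. The siYAP values within a line lay closer together than their distance to the control. Against siCTRL the change was nearly the same in both lines, -0.56 (SE 0.15, FDR = 0.0508) in A431 and -0.57 (SE 0.15, FDR = 0.0445) in HaCaT, on opposite sides of the threshold. The A431 difference passed it in DESeq2 (FDR = 0.0237), with over 10 counts asked of every library (FDR = 0.0425) and with A431 fitted alone (FDR = 0.0484). It did not pass without a count filter (FDR = 0.0832) or without any of the 3 replicates (FDR 0.0957 to 0.119). With both controls together it was smaller, at -0.38 (FDR = 0.236), and the A431 empty vector library had 34.5 CPM. HaCaT then gave -0.62 (FDR = 0.0122). The HaCaT call was lost without any of the 3 replicates (FDR 0.0768 to 0.102), without a count filter (FDR = 0.0662) and with HaCaT fitted alone (FDR = 0.113), and the fit over both lines gave -0.56 (SE 0.11, FDR = 0.00503). That call held without each replicate in turn.

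LATS2, which phosphorylates YAP directly, lay on opposite sides of siCTRL in the lines. Its levels in A431 were 17.8 CPM in siCTRL and 31.2, 25.6 and 29.7 CPM with siYAP, all above both A431 controls. Its levels in HaCaT were 35.6 CPM in siCTRL and 24.9, 24.0 and 25.5 CPM with siYAP. These 3 HaCaT libraries lay below siCTRL but above the empty vector library of the same line, which had 22.2 CPM. The A431 rise was 0.69 (SE 0.18, FDR = 0.043) and lost its call without replicate 1 or 3 (FDR 0.102 and 0.105), without a count filter (FDR = 0.0605) and with both controls together (FDR = 0.0711). The HaCaT difference, -0.52 (SE 0.17, FDR = 0.0923), was not called.

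The difference between the lines in the LATS2 response was -1.21 (SE 0.25, 95% interval -1.75 to -0.68, FDR = 0.0795), past the threshold in DESeq2 (FDR = 0.00338) and not in edgeR. In edgeR 0 of 10 members passed this interaction test, against 0.17% of all genes, while DESeq2 called 1, with its share of all genes not counted. At an unadjusted p under 0.05 there were 2 of 10 members and 11.5% of all genes. FRMD6 was the other member at an unadjusted p under 0.05. Its siYAP libraries stood at 155.4, 131.2 and 152.7 CPM in A431, all above the 128.2 CPM of siCTRL, and at 328.5, 362.4 and 330.8 CPM in HaCaT, all below the 436.7 CPM of siCTRL. The interaction for FRMD6 was -0.55 (SE 0.25, FDR = 0.413).

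The remaining members gave no call with siYAP. LATS1, the second LATS kinase, ranged from 48.8 to 59.8 CPM in the A431 siYAP libraries against 64.5 CPM in siCTRL, and from 59.5 to 70.2 CPM against 62.3 CPM in HaCaT. SAV1, the scaffold of STK3 and STK4, gave -0.40 (SE 0.14, FDR = 0.108) in A431, where the siYAP libraries at 66.1 to 78.4 CPM lay below siCTRL at 93.2 CPM but above empty vector at 60.1 CPM. In HaCaT the SAV1 difference was 0.00 (95% interval -0.31 to 0.31). These intervals limit the change without showing that there was none. For STK3 the difference was 0.00 (95% interval -0.28 to 0.29) in A431 and -0.21 (95% interval -0.50 to 0.07) in HaCaT. STK4 gave -0.07 (95% interval -0.32 to 0.17) and 0.20 (95% interval -0.05 to 0.45). NF2, a tumour suppressor that links membrane and cytoskeleton, differed by -0.10 (95% interval -0.62 to 0.42) and -0.11 (95% interval -0.63 to 0.41). The median change of the 10 members was -0.16 in A431 and -0.29 in HaCaT, while that of all tested genes was 0.03 in each.

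**Figure D2:**
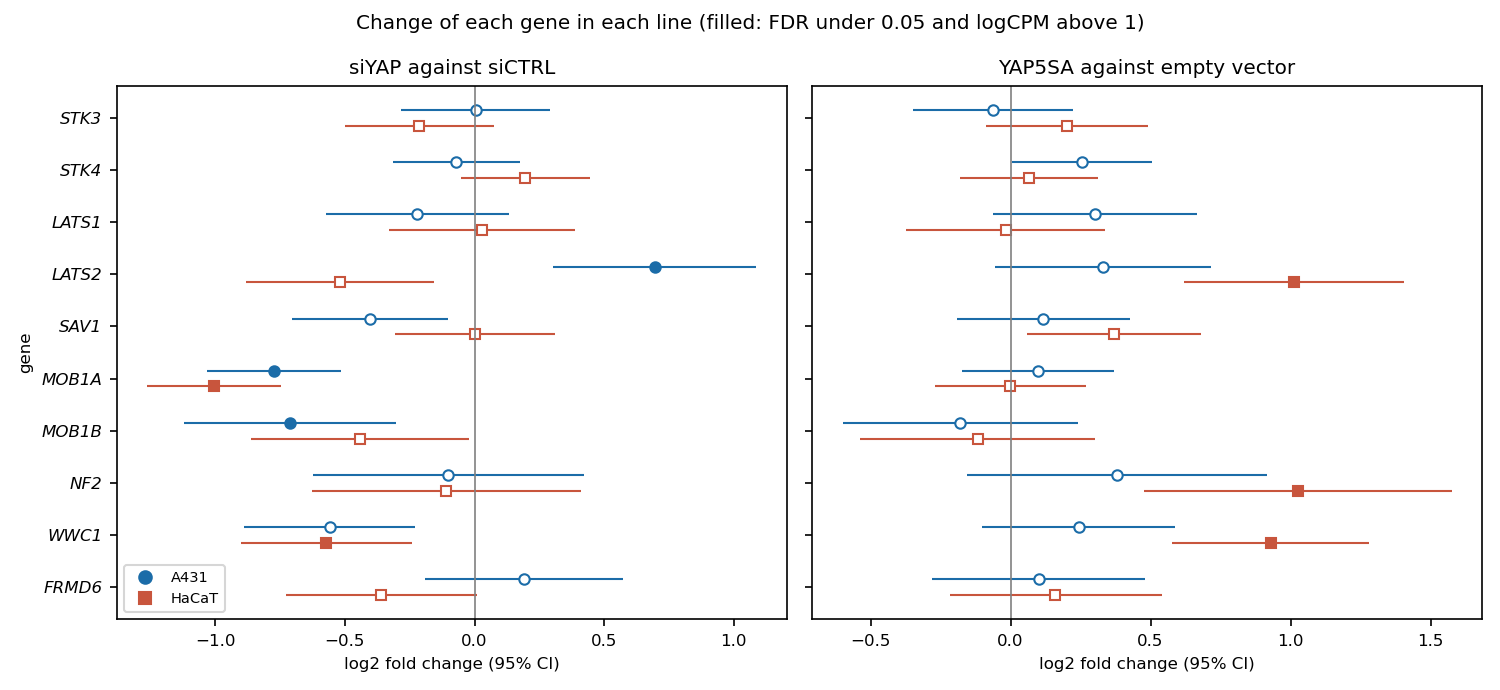
Log2 fold change of each gene (horizontal axes) for siYAP against siCTRL (left) and YAP5SA against empty vector (right), circles for A431 and squares for HaCaT, with 95% intervals from edgeR. Filled symbols were called: MOB1A in both lines, MOB1B and LATS2 in A431 and WWC1 in HaCaT with siYAP, and LATS2, NF2 and WWC1 in HaCaT with YAP5SA.

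The words shown above were also present in members that were not called. Of the 10 members, 6 held at least 1 (MOB1A, MOB1B, WWC1, SAV1, LATS1 and STK4), compared with 31.2% of the 10962 tested genes that had a log2 CPM above 1 and a 3′ UTR of 50 bases or more. The share rose with UTR length, from 26% at 1000 to 2000 bases to 47.5% at 2000 to 4000 bases and 73.1% beyond 4000 bases, and the UTR of MOB1B has 6111 bases and that of MOB1A 4040. FRMD6, LATS2, NF2 and STK3 held none in UTRs of 1211 to 3852 bases. Across all those genes the median change with siYAP was -0.11 with a word and 0.05 without in A431, and -0.05 and 0.02 in HaCaT. Since the words had come up among genes lower with siYAP in these same data, a lower siYAP median is built in and supports nothing. Genes with and without a word were not matched for UTR length. With YAP5SA the medians were 0.06 and 0.04 in A431 and -0.13 and 0.04 in HaCaT, where WWC1, which holds both words, rose. The part of these words in any change was not tested.

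**Figure D3:**
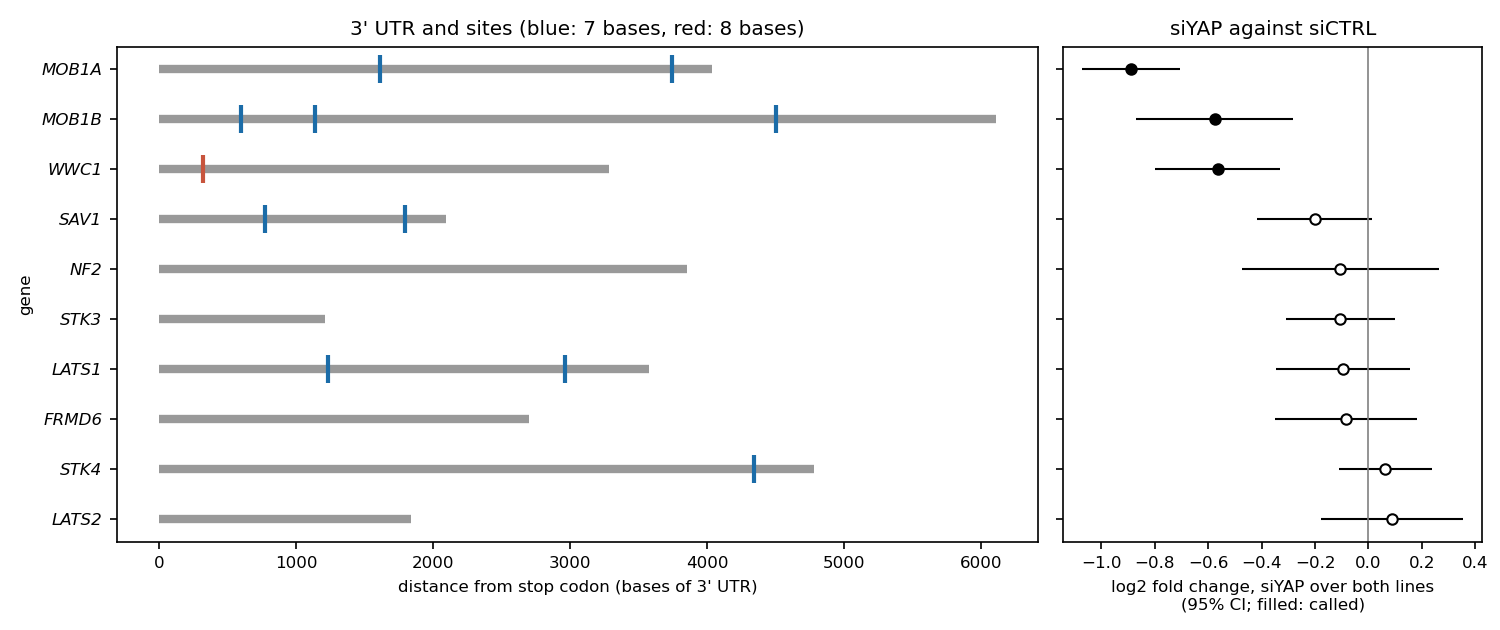
Left, the 3′ UTR of each gene as a grey bar with the positions of the 7-base words (blue) and of the 8-base run holding both (red), in bases after the stop codon. Right, the siYAP log2 fold change over both lines with its 95% interval, filled where called. The 3 genes with the lowest changes, MOB1A, MOB1B and WWC1, hold words, but so do SAV1, LATS1 and STK4.

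The next question was how the same transcripts stood when YAP was made insensitive to LATS. With YAP5SA, LATS2, NF2 and WWC1 rose in HaCaT by 1.90 to 2.04-fold and no member was called in A431. The HaCaT count was 3 of 10 members, all higher, where 13.6% of all tested genes were called. In A431 edgeR called 0 of 10 members and 0% of all genes, with 1 member (STK4) and 828 genes (5.64%) at an unadjusted p under 0.05, and DESeq2 also called 0 members. The A431 comparison did not call YAP1 itself either, at a 20.6-fold higher level. Over both lines 2 of 10 were called, against 2.04% of all genes.

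LATS2 stood at 22.2 CPM with empty vector in HaCaT and at 38.5, 50.1 and 46.0 CPM with YAP5SA. All 3 YAP5SA values were also above the HaCaT siCTRL library, at 35.6 CPM. The change was 1.01 (SE 0.18, FDR = 0.00668), a 2.02-fold rise, and it remained called under each alternative, although with both controls together it was smaller, at 0.64 (FDR = 0.0425). In A431 LATS2 stood at 15.9 CPM with empty vector and at 21.3, 19.4 and 19.4 CPM with YAP5SA, a difference of 0.33 (95% interval -0.06 to 0.72) that was not called.

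Among the 12 RefSeq promoter windows of the members, LATS2 was the holder of the core letters of a TEAD binding motif, GGAATG, searched on both strands over 250 bases before to 50 after the start. These windows belong to 9 of the 10 members, and that of STK3 is not reported here. The stretch lies at chr13:21061562-21061587 on the minus strand of GRCh38.p14, and the motif begins at transcribed base 10, in exon sequence before the coding part.
LATS2 start region: tgacgcccgtGGAATGccaacaatgt
Of all 35116 windows 14% held these letters, and of the 15274 windows of tested genes 11.7% did. No binding was measured here, and the absence of the letters from the other 11 windows says nothing about the factor.

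NF2 was measured at 83.8 CPM with empty vector in HaCaT and at 130.1, 200.3 and 181.2 CPM with YAP5SA. These values did not overlap either HaCaT control, although they spread widely (170.5 ± 36.3 CPM, SD, n = 3). The rise was 1.03 (SE 0.25, FDR = 0.0214), and it missed the threshold when HaCaT was fitted alone (FDR = 0.0522). In A431 the empty vector library had 45.7 CPM and the YAP5SA libraries 47.1, 67.7 and 63.4 CPM. The first of these lay below the A431 siCTRL library, at 49.1 CPM, and the difference of 0.38 (95% interval -0.16 to 0.92) was not called.

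WWC1 had 58.9 CPM with empty vector in HaCaT and 99.3, 108.3 and 128.7 CPM with YAP5SA. The YAP5SA libraries were above both controls of the line, and the siYAP libraries, at 36.1 to 38.6 CPM, below both. The rise was 0.93 (SE 0.16, FDR = 0.00611). In A431 it had 34.5 CPM with empty vector and 36.2, 44.1 and 42.3 CPM with YAP5SA, which put all 3 below the siCTRL library at 44.8 CPM. The A431 difference was 0.24 (95% interval -0.10 to 0.59).

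Over both lines the YAP5SA change was 0.67 (SE 0.13, FDR = 0.0255) for LATS2 and 0.59 (SE 0.11, FDR = 0.0278) for WWC1. Neither was called without A431 replicate 2 or 3, where 0 members passed (FDR 0.0561 to 0.0669), although the fold changes were then 0.56 to 0.68. LATS2 also missed the threshold with both controls together (0.44, FDR = 0.0686). The NF2 change of 0.70 (SE 0.18, FDR = 0.059) missed the threshold, but passed it in DESeq2 (FDR = 0.00547), under both other count filters (FDR 0.0399 and 0.0488), with both controls together (FDR = 0.0235) and without replicate 1 of either line (FDR 0.0196 and 0.011). Same-numbered YAP5SA libraries of the lines correlated at 0.101 to 0.28 in their deviations from group means. Differently numbered ones ranged from -0.251 to 0.14, so the 2 ranges overlapped. Replicate number was made a block only after seeing the data. With it LATS2 (FDR = 0.00881), WWC1 (FDR = 0.00303) and NF2 (0.68, FDR = 0.00406) were all called, 3 of 10 members against 9.39% of all genes. The difference between the lines in the YAP5SA response was 0.68 (SE 0.25, FDR = 0.138) for LATS2, 0.69 (SE 0.22, FDR = 0.111) for WWC1 and 0.65 (SE 0.34, FDR = 0.281) for NF2. For this interaction edgeR and DESeq2 each called 0 of 10 members, and edgeR 0.0886% of all genes. At an unadjusted p under 0.05 there were 2 of 10 members and 22.4% of all genes. With the block on the YAP5SA libraries WWC1 alone of the members passed (0.68, FDR = 0.042), against 5.29% of all genes.

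The kinases upstream of LATS and both MOB1 genes were not called with YAP5SA. MOB1A stood at 177.0, 167.9 and 173.6 CPM in A431 against 161.5 CPM with empty vector, and at 140.3, 157.2 and 147.2 CPM in HaCaT against 148.3 CPM. Its differences were 0.10 (95% interval -0.17 to 0.37) and 0.00 (95% interval -0.27 to 0.27), intervals that leave out a change of the size seen with siYAP in either direction. MOB1B gave -0.18 (95% interval -0.60 to 0.24) and -0.12 (95% interval -0.54 to 0.30). SAV1 in HaCaT was 81.8 CPM with empty vector and 107.2, 101.8 and 108.0 CPM with YAP5SA. All 3 values exceeded both controls, yet the difference of 0.37 (SE 0.14, FDR = 0.0972) was not called. FRMD6 and LATS1 had YAP5SA libraries on both sides of the empty vector library in HaCaT. The median change of the 10 members was 0.18 in each line, against 0.02 over all tested genes in A431 and 0.01 in HaCaT.

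A direct comparison of YAP5SA with siYAP has 3 libraries on each side but also carries the difference between the vector and siRNA arms. In HaCaT 7 of 10 members were called, all higher with YAP5SA, where 60% of all genes were called. In A431 it was 4 of 10, against 34.6% of all genes. WWC1 was 1.60 higher on the log2 scale (SE 0.11, FDR = 6.41e-08) in HaCaT, NF2 1.34 (SE 0.17, FDR = 1.41e-05) and MOB1A 1.17 (SE 0.09, FDR = 1.34e-07).

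For STK3 and SAV1 in HaCaT the controls of the arms also differed. STK3 stood at 51.8, 55.4 and 51.6 CPM with siYAP and at 104.4, 98.6 and 99.7 CPM with YAP5SA in HaCaT, a difference of 0.93 (SE 0.09, FDR = 1.78e-06). The controls of those arms were already apart in the same direction, at 61.3 CPM in siCTRL and 87.7 CPM with empty vector, a ratio of 1.43. SAV1 differed by 0.89 (SE 0.10, FDR = 4.42e-06) between YAP5SA and siYAP, and its controls, at 56.8 and 81.8 CPM, by a ratio of 1.44. With each arm first set against its own control, the STK3 difference was 0.42 (FDR = 0.177) and that of SAV1 0.37 (FDR = 0.262), neither called, and the calls left were 3 in HaCaT (LATS2, MOB1A and WWC1). NF2 missed the threshold with a change of 1.13 (FDR = 0.0546) and MOB1B with 0.32 (FDR = 0.489). That contrast rests on the single control of each arm, and the share of all genes called in it was not counted for either line. The part of the arms in the direct differences was not tested.

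In A431 MOB1A was 0.64 higher (SE 0.09, FDR = 0.000142) and WWC1 0.43 higher (SE 0.11, FDR = 0.00928) with YAP5SA than with siYAP. LATS2 was lower by -0.53 (SE 0.12, FDR = 0.00471) and STK3 by -0.37 (SE 0.09, FDR = 0.00755). The A431 siYAP libraries of LATS2, at 25.6 to 31.2 CPM, lay above its YAP5SA libraries, at 19.4 to 21.3 CPM, while in HaCaT the order was the other way round, 24.0 to 25.5 below 38.5 to 50.1 CPM. With each arm set against its own control, the A431 calls came down to 1 (MOB1A, FDR = 0.0353), while WWC1 became larger but was not called (0.80, FDR = 0.0803), and LATS2 and STK3 stood at -0.37 (FDR = 0.432) and -0.07 (FDR = 0.882).

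The lines were also compared in the members' levels. Averaged over the 4 conditions, 7 of 10 members differed between HaCaT and A431, where 60.6% of all genes did. FRMD6 differed most among the members, by 1.60 (SE 0.09, FDR = 4.33e-09): it ranged from 112.7 to 155.4 CPM with a median of 128.7 CPM over the 8 A431 libraries and from 328.5 to 485.1 CPM with a median of 362.5 CPM in HaCaT. NF2 was 0.88 higher in HaCaT (SE 0.12, FDR = 2.48e-05), WWC1 0.70 (SE 0.08, FDR = 3.34e-06) and LATS2 0.61 (SE 0.09, FDR = 3.41e-05). Only for FRMD6 among these 4 were the ranges of the 2 lines apart, and with siYAP the mean of LATS2 was lower in HaCaT (24.8 CPM) than in A431 (28.9 CPM). In A431 the level was higher for STK3 (-0.55, SE 0.07, FDR = 7.12e-06), MOB1B (-0.44, SE 0.10, FDR = 0.00139) and MOB1A (-0.40, SE 0.06, FDR = 6.55e-05), although with YAP5SA the mean of STK3 was higher in HaCaT (100.9 CPM) than in A431 (93.2 CPM). STK4 (0.13, 95% interval 0.01 to 0.25, FDR = 0.0553), LATS1 (0.07, 95% interval -0.11 to 0.25) and SAV1 (0.03, 95% interval -0.12 to 0.18) were not called.

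Within a line the members varied to different degrees. STK4 was the steadiest, with a highest level 1.28 times the lowest in A431 and 1.19 times in HaCaT. WWC1 and NF2 varied most in HaCaT, by 3.57 and 3.32 times, and by 1.48 and 1.66 times in A431. LATS2 varied 1.96 times in A431 and 2.25 times in HaCaT.

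Because LATS1 and LATS2, STK3 and STK4, and MOB1A and MOB1B are pairs of paralogues, the share of 1 gene in the counts of its pair was also followed, without a test and without correction for transcript length. LATS2 made up 21.7% of the LATS counts in A431 siCTRL and 35.2, 34.4 and 33.2% with siYAP. In HaCaT it made up 36.3% in siCTRL, 29.5, 28.2 and 26.6% with siYAP, 28.5% with empty vector and 38.3, 50.5 and 45.8% with YAP5SA. The share of LATS2 with siYAP was thus above both controls in A431 and, in HaCaT, below siCTRL and close to empty vector, and LATS1 stayed between 47.7 and 70.2 CPM in all 16 libraries. The STK3 share in HaCaT was 19.3 to 19.6% with siYAP and 24.3% in siCTRL, against 30.0% with empty vector and 30.7 to 33.6% with YAP5SA. In A431 it lay between 36.5 and 39.0% in 6 of 8 libraries and at 29.9 and 31.2% in YAP5SA replicates 2 and 3. The MOB1B share lay between 23.0 and 36.7% throughout, and with siYAP in A431, where both genes fell, it was 29.1 to 32.0% beside 29.7% in siCTRL. In HaCaT it was 31.9, 30.4 and 36.7% with siYAP beside 25.1% in siCTRL.

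**Figure D4:**
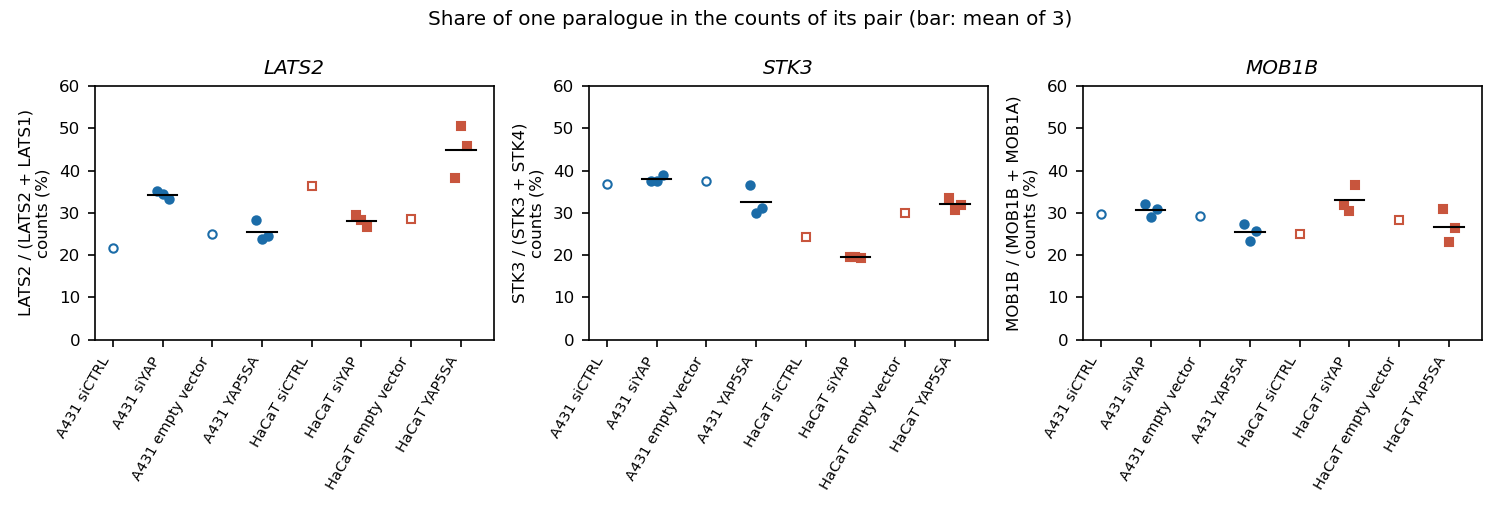
Share of LATS2, STK3 and MOB1B (vertical axes, % of the counts of the pair, from 0 to 60) in each library by group, blue for A431 and red for HaCaT. Open symbols are single controls and bars are means of 3. The LATS2 share was 34.3 ± 1.0% with siYAP in A431 beside 21.7% in the control, and 44.9 ± 6.2% with YAP5SA in HaCaT beside 28.5% (SD, n = 3).

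Members were also compared by their course over the 16 libraries, as the Pearson correlation of log2(CPM + 0.5) after centring each line. The libraries of a group share their treatment and their arm, so these values describe the pattern and carry no test. Of the 45 pairs of members 19 correlated above 0.5 and 0 below -0.5. STK3 went most closely with SAV1 (r = 0.92), NF2 with WWC1 (0.92) and MOB1A with MOB1B (0.86). Among 12238 genes the one most like a member was MSMO1 for STK3 (0.97), HMGCS1 for SAV1 (0.93), NCEH1 for STK4 (0.80), ZNF462 for LATS1 (0.83), HACD1 for MOB1B (0.92), SLC39A3 for NF2 (0.97), APEX2 for WWC1 (0.98) and TIMM9 for FRMD6 (0.91). For LATS2 the first 5 were MET, the receptor of hepatocyte growth factor (0.91), TRIM11 (0.91), ANGEL1 (0.90), SFSWAP (0.90) and EVA1A (0.90).

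Beyond the 10 members, 60 other genes of the pathway were listed in 6 groups, and 56 of them were tested. With siYAP over both lines 7 were called higher and 4 lower (19.6%, against 13% of all genes), in A431 3 and 4 (12.5%, against 5.6%) and in HaCaT 3 and 2 (8.9%, against 5.67%). With YAP5SA 0 were called in A431, 7 higher and 2 lower in HaCaT (16.1%, against 13.6%) and 3 higher over both lines (5.4%, against 2.04%). In the direct comparison 13 were called higher and 14 lower in A431 (48.2%, against 34.6%) and 19 and 21 in HaCaT (71.4%, against 60%). Both interaction tests called 0. The median change of the 56 was -0.04 in A431 and 0.04 in HaCaT with siYAP, and 0.03 and 0.10 with YAP5SA.

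Of the 9 MAP4K and TAO kinases tested, which can phosphorylate LATS in parallel with STK3 and STK4, 2 rose and 1 fell over both lines with siYAP. MAP4K5 fell by 1.11 on the log2 scale (FDR = 1.43e-05), from 86.8 CPM to 31.0 to 38.1 CPM in A431 and from 91.1 CPM to 48.4 to 51.7 CPM in HaCaT. TNIK rose by 1.23 (SE 0.11, FDR = 2.84e-05), from 52.5 CPM to 104 to 119 CPM in A431 and from 44.2 CPM to 106 to 129 CPM in HaCaT, and MAP4K3 by 0.34 (SE 0.09, FDR = 0.0231), with a HaCaT change of 0.64 (FDR = 0.0107), from 71.0 CPM to between 108 and 113 CPM, beside an A431 difference of 0.04, from 65.6 CPM to between 65.5 and 71.5 CPM. The changes of these kinases thus went both ways, and with YAP5SA 0 of 9 were called in either line.

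Of the 6 NDR kinases and further MOB proteins, STK38 fell and MOB3C rose with siYAP over both lines. STK38, an NDR kinase that also binds MOB1, gave -0.97 (SE 0.11, FDR = 0.000135). In A431 it was 87.2 CPM in siCTRL and 41.5 to 43.6 CPM with siYAP, below every other A431 library. In HaCaT siYAP libraries were at 124 to 139 CPM, below siCTRL at 251 CPM, while the empty vector library had 139 CPM. The HaCaT YAP5SA libraries of STK38 lay below its siYAP libraries, at 96.4 to 108 CPM. Their difference from empty vector, -0.47, was not called. MOB3C gave 0.46 (SE 0.14, FDR = 0.0482). In HaCaT STK38L, the other NDR kinase, rose by 0.52 with siYAP (SE 0.14, FDR = 0.0462) and fell by 0.42 with YAP5SA (SE 0.13, FDR = 0.0482). Its siYAP libraries, at 43.8 to 46.4 CPM, overlapped its YAP5SA libraries, at 40.5 to 47.5 CPM. All of them lay between siCTRL at 31.1 CPM and empty vector at 58.4 CPM. MOB3B rose by 0.94 with YAP5SA in HaCaT (SE 0.19, FDR = 0.0111).

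The STRIPAK complex, a phosphatase assembly that removes activating phosphates from STK3 and STK4, had 16 members tested. With siYAP over both lines STRN4 rose by 0.51 (SE 0.12, FDR = 0.0127) and PPP2CB, a catalytic subunit, fell by 0.28 (SE 0.08, FDR = 0.0408). With YAP5SA in HaCaT STRN4, a striatin scaffold, rose by 1.14 (SE 0.17, FDR = 0.00331) and PPP2R1A by 0.55 (SE 0.14, FDR = 0.0225). STRN4 was at 28.8 to 32.1 CPM in those libraries, at 14 CPM with empty vector and at 25.8 CPM in siCTRL. STRN4 was therefore called higher with both YAP depletion and mutant YAP, each against its own control, but in no single line with both. The siYAP change was 0.72 in A431 (FDR = 0.0241), while the HaCaT difference of 0.30 was not called. With YAP5SA the A431 difference of 0.07 was not called. In HaCaT its siYAP libraries, at 31.3 to 32.0 CPM, overlapped its YAP5SA libraries.

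Among 8 tested LATS inhibitors and ubiquitin ligases, AJUBA, a LIM protein that restrains LATS, fell with siYAP over both lines by 0.92 (SE 0.16, FDR = 0.00266). In A431 it went from 103 CPM to 41.1 to 47.6 CPM (-1.21, FDR = 0.00898). The HaCaT difference of -0.63, from 307 CPM to between 194 and 206 CPM, was not called. ZYX, a LIM protein of focal adhesions, rose with YAP5SA in HaCaT by 2.04 (SE 0.35, FDR = 0.00576), from 3.85 CPM with empty vector to 12.6 to 21.5 CPM, levels that overlapped siCTRL at 18 CPM. MARK4, a kinase of the same list, rose by 1.29 in that comparison (SE 0.30, FDR = 0.0163), from 2.29 CPM to 4.39 to 7.46 CPM, all below siCTRL at 8.52 CPM.

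Of the 6 RASSF proteins, which bind STK3 and STK4, RASSF5 (1.04, SE 0.24, FDR = 0.0126) and RASSF6 (0.58, SE 0.15, FDR = 0.0225) rose with siYAP over both lines, and RASSF6 fell by 0.89 with YAP5SA in HaCaT (SE 0.18, FDR = 0.011). The RASSF5 change was 1.73 in A431, while the HaCaT difference of 0.34 was not called. The HaCaT controls of RASSF5 stood at 129 CPM (siCTRL) and 41.4 CPM (empty vector). RASSF6 in HaCaT was at 38.2 to 39.8 CPM with siYAP, below empty vector at 40.3 CPM. Its HaCaT YAP5SA libraries lay on both sides of siCTRL, at 23.3 CPM. The part of the single controls in these changes was not tested. Of 11 tested apical, junctional and other upstream regulators, DLG5 rose with siYAP over both lines (0.50, SE 0.12, FDR = 0.014) and HEG1 fell in A431 (-1.02, SE 0.27, FDR = 0.0437). HEG1 went from 230 CPM in A431 siCTRL to 105 to 119 CPM, with the empty vector library at 123 CPM, and in HaCaT its difference was 1.01, from 12.1 CPM to 20.3 to 26.9 CPM, and not called. KIRREL (0.93, SE 0.18, FDR = 0.00877) and WWC2, a paralogue of WWC1 (0.40, SE 0.12, FDR = 0.0446), rose with YAP5SA in HaCaT. Over both lines the YAP5SA calls among the 56 were ZYX (1.13, FDR = 0.0329), STRN4 (0.60, FDR = 0.0273) and KIRREL (0.55, FDR = 0.0434), with A431 differences of 0.23, 0.07 and 0.17 beside HaCaT changes of 2.04, 1.14 and 0.93.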

How the data were processed

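The authors aligned paired reads, cut to 75 bp, against RefSeq transcripts, had RSEM assign them to genes and deposited the resulting estimated counts as 1 table, unscaled and unfiltered. The submitters' processing notes name RSEM 1.2.11, edgeR and build hg19, while the paper gives another RSEM version. The table holds no positions. All 16 library columns were used. Spreadsheet dates stood in place of 28 symbols and 4 rows shared a symbol, none of them a member. Pairs of libraries within a group differed by far more than sampling noise.

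After rounding, genes averaging more than 10 counts were kept. Tests used edgeR 4.0.16 (with limma 3.58.1) and DESeq2 1.42.0 under R 4.3.3, and summaries and plots used Python 3.11.15, pandas 2.3.3, numpy 2.4.6 and matplotlib 3.10.9. The edgeR quasi-likelihood test was applied to 1 model of 8 groups (TMM factors 0.9135 to 1.074, prior count 0.125, 8 residual degrees of freedom, biological coefficient of variation 0.174), with Benjamini-Hochberg adjustment over all 14673 genes. The test was also run on simulated counts with known changes, and the outcome is not given here. The standard error is the log2 fold change over the root of F. Log2 changes and intervals are given to 2 decimals.

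The members, the pathway and marker lists and the 3′ UTR words were chosen with earlier results of these data known. Named beside the members were YAP1, WWTR1, up to 3 called genes of a list per direction and comparison with the largest changes, and the genes most correlated with each member, of which that for MOB1A is not reported here. UTRs came from GENCODE v29 on GRCh38 and promoters from RefSeq on GRCh38.p14. Alternatives were DESeq2, RLE size factors, other count filters, FDR alone, each line fitted alone, both controls together, each arm against its own control, leaving out each treated library, a replicate block and, added after seeing the data, treated libraries only and a block on the YAP5SA libraries, whose same-numbered pairs across the lines all correlated above 0.1 in their deviations from group means (in no other pair of groups did all 3). That pairing comes from the data, since the labels do not say what a replicate number marks. Differently numbered YAP5SA pairs across the lines reached up to 0.14.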

Additional observations from a re-analysis of the deposited data

Results flagged for a closer look

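LATS2 stood out because its 3 siYAP libraries all lay above siCTRL in A431 (25.6 to 31.2 against 17.8 CPM) and all below it in HaCaT (24.0 to 25.5 against 35.6 CPM). The difference of the effects, HaCaT minus A431, was -1.21 (SE 0.25). The edgeR interaction test did not pass the threshold (FDR = 0.0795), DESeq2 did (FDR = 0.00338), and over all alternatives the FDR ranged from 0.00338 to 0.188. The HaCaT empty vector library, at 22.2 CPM, lay below all 3 siYAP libraries.

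FRMD6 stood out for the same kind of opposite movement, all 3 siYAP libraries above siCTRL in A431 (131.2 to 155.4 against 128.2 CPM) and all below it in HaCaT (328.5 to 362.4 against 436.7 CPM). The difference of the effects was -0.55 (SE 0.25, FDR = 0.413), which is not past the threshold, and the A431 library nearest to its control was 131.2 CPM. Each line has a single siCTRL library, and its part in either pattern was not tested.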

How the results depend on the processing

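Of the 140 alternative values of the counts of called members 125 stayed within 1.5 times the original, and the others were these. With siCTRL and empty vector as 2 controls, siYAP calls went from 3 to 1 in A431 and from 2 to 4 in HaCaT (STK3 and MOB1B added). The HaCaT siYAP count was 1 without a count filter and 1 with the line fitted alone. Leaving out a treated library gave 1 to 2 for A431 siYAP, 1 each time for HaCaT siYAP and 0 to 3 for YAP5SA over both lines. With each arm against its own control the direct comparison gave 1 in A431 and 3 in HaCaT, and DESeq2 gave 1 for the siYAP interaction. Sign changes were confined to differences that were not called. With 2 controls these became 0.09 (STK4, A431 siYAP), 0.04 and 0.03 (LATS1 and FRMD6, siYAP over both lines), -0.23 and -0.02 (SAV1 and MOB1A, A431 YAP5SA), 0.07 (MOB1B, HaCaT YAP5SA), -0.02 (LATS1, YAP5SA over both lines), -0.16 and -0.07 (SAV1 and MOB1B, siYAP interaction), and 0.05 and 0.10 (STK4 and MOB1A, YAP5SA interaction). LATS1 with YAP5SA in HaCaT became 0.02 when over 10 counts were asked of every library. In the direct comparison STK4 and SAV1 became 0.33 and 0.52 in A431 with each arm against its own control, and STK4 in HaCaT 0.03 without a filter and 0.02 with the line alone. Leaving out libraries gave -0.05 to 0.08 (LATS1, HaCaT siYAP), -0.11 to 0.06 (LATS1, HaCaT YAP5SA), -0.07 to 0.01 (STK4, A431 direct), -0.11 to 0.08 and -0.03 to 0.01 (NF2 and WWC1, siYAP interaction), and -0.06 to 0.16 and -0.09 to 0.17 (MOB1B and FRMD6, YAP5SA interaction). The causes were not tested. Of 18 same-numbered pairs of libraries 5 correlated above 0.1 (-0.022 to 0.28), among them all 3 between the YAP5SA groups of the lines. A replicate block on those 6 YAP5SA libraries, added after seeing the data, gave 3 members called over both lines, 1 for the YAP5SA interaction (against 0) and 8 between the lines, where 9300 of all 14673 genes were called. A replicate block on the 12 treated libraries gave 5 members called in the A431 direct comparison, 7 in HaCaT and 9 between the lines, against 4, 7 and 9 without the block in those libraries. Among the alternatives, the share of all genes called was counted only for the block on the YAP5SA libraries. The control libraries are single and could not be left out. The fewest counts of any member were 347 (LATS2, A431 empty vector).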

Other observations

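The YAP5SA libraries differed in how much YAP1 they held. In HaCaT YAP1 stood at 7549, 22255 and 10069 CPM in replicates 1, 2 and 3, and in A431 at 1495, 3245 and 2940 CPM. In both lines replicate 1 had the lowest YAP1 and replicate 2 the highest, and NF2 was in the same order, at 130.1, 200.3 and 181.2 CPM in HaCaT and 47.1, 67.7 and 63.4 CPM in A431. STK4, the steadiest member, was in the same order too, at 206.0, 222.7 and 213.3 CPM in HaCaT and 184.3, 197.6 and 196.9 CPM in A431. LATS2 was in that order in HaCaT, at 38.5, 50.1 and 46.0 CPM, whereas in A431 its highest level, 21.3 CPM, was in replicate 1. MOB1B was in the opposite order, at 62.6, 47 and 52.5 CPM in HaCaT and 66.8, 51.0 and 59.7 CPM in A431. So was STK3, at 104.4, 98.6 and 99.7 CPM in HaCaT and 106.0, 84.2 and 89.3 CPM in A431. The remaining members kept neither order in both lines. These are 3 libraries a line, seen after their values were known, and no test was made. The amount of YAP1 and anything else that goes with the replicate number cannot be told apart. The share of all genes in either order was not counted.

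WWTR1, which encodes the YAP paralogue TAZ, was at 81.2 CPM in HaCaT siCTRL and at 108.3, 114.1 and 126.5 CPM with siYAP, all above both HaCaT controls. In A431 it was at 174.4 CPM in siCTRL and at 154.9, 154.4 and 160.2 CPM with siYAP, below that control and above the empty vector library, at 138.0 CPM. Neither difference from siCTRL, 0.52 in HaCaT and -0.16 in A431, was called.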
